A study of Homo sapiens with 4 samples.

Results

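The siOCT1 difference under androgen was read from 2 arrays of 22Rv1, an established line of human prostate cancer that grows without testicular androgen and carries the androgen receptor. Both cultures received 10 nM dihydrotestosterone (DHT), the most potent natural androgen, for 24 h, starting 48 h after transfection with siControl, a control siRNA, or siOCT1, which targets OCT1. A second pair of arrays held the same transfections with ethanol as vehicle. All 4 cultures were grown in RPMI with 10% FBS and then kept in phenol red-free medium with 2.5% charcoal-stripped serum for 3 days before the hormone, so the vehicle cells had little steroid. Each group held 1 array, so no value has a replicate, no test was possible, and a difference compares these arrays rather than the conditions. The number of siRNA sequences behind each label is unstated in the sources read, and POU2F1, the gene that encodes OCT1, was not analysed here, so the depletion itself was not checked. A gene was a member where it had 1 gene symbol and exceeded background on at least 1 of the DHT arrays, background being the 95th percentile of that array's negative controls. This kept 7945 of 17687 genes.

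OCT1 belongs to the POU family of transcription factors and binds the octamer motif, a short A and T rich element found in histone H2B and many other promoters. It is made in most cell types and takes part in housekeeping, stress and metabolic gene control. In prostate cancer cells it is known as a partner of the androgen receptor, which enters the nucleus on binding DHT and switches on a set of luminal genes while lowering another set. The comparison asks which genes differ by OCT1 siRNA while that receptor is occupied.

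Of the 7945 genes, 7030 lay above background on both DHT arrays, 431 only on the siOCT1 array and 484 only on the siControl array. Counting differences of 1.5-fold or more, 1499 genes were higher with siOCT1 (18.9%) and 2101 were lower (26.4%), together 45.3%. The median difference over all kept genes was -0.076 on the log2 scale, with quartiles of -0.63 and 0.42. At 2-fold the counts were 682 and 1138, at 4-fold 107 and 263, and at 8-fold 35 and 58, so on the deposited scale lower genes outnumbered higher ones at each size. At 1.5-fold that order depended on the scaling. With differences centred on the positive control probe sets, whose median was -0.119, 1856 genes were higher and 1782 lower, so lower genes made up 49.0% of those past 1.5-fold against 58.4% as deposited. Centring on the median of kept genes gave 52.3%, and a loess curve along expression 51.5%. Genes above background on both arrays gave 1205 higher and 1701 lower.

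The array's own controls were counted in the same way. The 612 negative control probe sets had a median signal of 3.37 with siControl and 3.33 with siOCT1 under DHT, well below background. They were thus mostly dimmer than the kept genes. Of these controls 56.9% differed by 1.5-fold or more between the same 2 arrays, 178 higher and 170 lower. Of the 48 that exceeded background on at least 1 of the arrays, 93.8% did so. Background is a percentile of these same controls, so controls above it on 1 array only tend to differ by construction. Among the 915 kept genes above background on 1 array the share was 75.8%, and among the 7030 above it on both 41.3%. Of the 2197 positive control probe sets 36.8% differed by 1.5-fold or more. Among kept genes the share past 1.5-fold was 52.6% where the mean of the 2 arrays was under 8 and 40.7% between 12 and 14, so dim genes passed more often than bright ones. Background stood at 6.99 for siControl and 6.91 for siOCT1. The epithelial genes EPCAM, KRT8, KRT18, CDH1, FOXA1 and HOXB13 lay above background on all 4 arrays, and the androgen target KLK3 only on the DHT arrays, at 7.53 and 6.94. The KLK3 value with siOCT1 under DHT was barely above background. With siOCT1 in vehicle KLK3 was close to it, at 6.79, below that array's higher background of 7.39. KLK2, the neighbour of KLK3 among androgen-induced kallikreins, read 7.04 and 8.37 with siControl (vehicle, then DHT) and 4.13 and 6.78 with siOCT1. KLK2 was above background on the siControl arrays only and at least 2.75-fold lower with siOCT1 under DHT. Of 17 markers of stromal, endothelial, immune and basal cells on the array, 0 were above background on the siControl DHT array and 1, ACTA2, on the siOCT1 DHT array, and their summed log2 signal was 68.7 and 72.8. VIM, COL1A1, PECAM1, PTPRC, KRT5 and KRT14 were below background on every array.

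**Figure D1:**
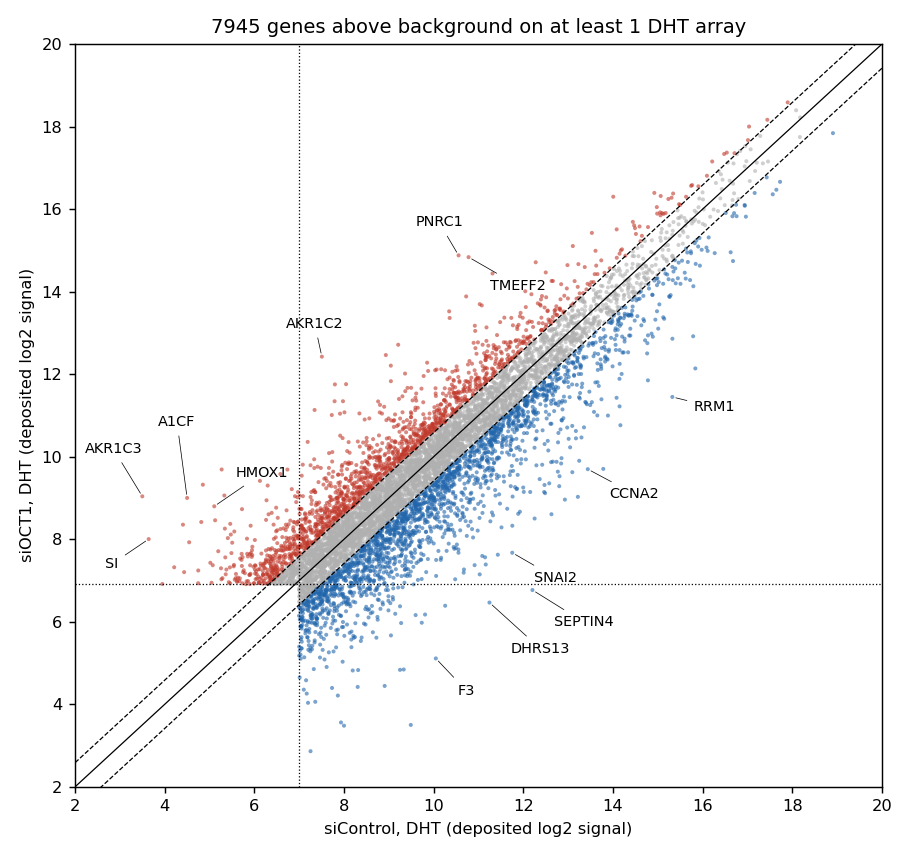
Deposited log2 signal of 7945 genes on the siControl DHT array (horizontal) and the siOCT1 DHT array (vertical). Each point is 1 gene, red where 1.5-fold or more higher with siOCT1 (1499), blue where lower (2101) and grey between; the solid line marks equality, dashed lines 1.5-fold and dotted lines the background of each array, 6.99 and 6.91.

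Histone H2B genes are the classic octamer-bearing genes, and their start regions are shown because 8 of the 11 kept H2B genes held an exact octamer (ATGCAAAT or its reverse complement ATTTGCAT) in the 300 bases from 250 before to 50 after the start. The windows come from RefSeq on GRCh38.p14 and run 5′ to 3′ along the gene, with the octamer in capitals. H2BC14 lies at chr6:27814772-27815071 on the plus strand, H2BC11 at chr6:27132746-27133045 on the minus strand, H2BC7 at chr6:26199266-26199565 on the plus strand, H2BC8 at chr6:26216639-26216938 on the minus strand and H2BC18 at chr1:149812321-149812620 on the minus strand. Each octamer is written on the gene's strand as ATTTGCAT.
H2BC14: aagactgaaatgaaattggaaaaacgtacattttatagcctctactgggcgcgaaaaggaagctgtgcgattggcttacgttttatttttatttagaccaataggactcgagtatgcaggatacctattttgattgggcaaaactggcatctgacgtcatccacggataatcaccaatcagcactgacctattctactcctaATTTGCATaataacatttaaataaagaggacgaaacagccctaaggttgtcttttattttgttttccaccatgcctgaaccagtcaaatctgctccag
H2BC11: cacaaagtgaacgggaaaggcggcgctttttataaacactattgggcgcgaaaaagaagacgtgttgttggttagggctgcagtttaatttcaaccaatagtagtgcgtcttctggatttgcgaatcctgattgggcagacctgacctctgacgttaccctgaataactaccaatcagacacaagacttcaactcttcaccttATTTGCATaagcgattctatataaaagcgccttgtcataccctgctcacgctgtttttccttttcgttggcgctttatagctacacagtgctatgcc
H2BC7: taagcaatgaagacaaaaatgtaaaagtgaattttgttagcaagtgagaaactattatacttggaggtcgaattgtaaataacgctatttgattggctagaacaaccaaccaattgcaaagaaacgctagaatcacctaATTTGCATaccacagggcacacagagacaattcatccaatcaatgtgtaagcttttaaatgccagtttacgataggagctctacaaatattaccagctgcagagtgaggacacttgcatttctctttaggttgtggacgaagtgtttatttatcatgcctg
H2BC18: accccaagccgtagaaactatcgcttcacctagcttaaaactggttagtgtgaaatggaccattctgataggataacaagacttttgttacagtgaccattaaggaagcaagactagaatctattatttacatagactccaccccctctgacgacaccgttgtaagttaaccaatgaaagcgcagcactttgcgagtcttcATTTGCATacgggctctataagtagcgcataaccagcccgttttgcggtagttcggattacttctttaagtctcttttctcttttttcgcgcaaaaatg
H2BC8: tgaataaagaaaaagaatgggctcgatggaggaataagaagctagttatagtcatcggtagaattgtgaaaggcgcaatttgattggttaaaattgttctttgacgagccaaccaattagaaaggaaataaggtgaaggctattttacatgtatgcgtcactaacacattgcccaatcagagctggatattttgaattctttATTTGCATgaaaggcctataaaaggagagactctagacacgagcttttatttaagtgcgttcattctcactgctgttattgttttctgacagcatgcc
The first base of the octamer lay 48 bases before the start in H2BC14 (position -48), at -47 in H2BC11, -49 in H2BC18, -48 in H2BC8 and at -111 in H2BC7.

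Counted over all RefSeq windows of this length, on either strand, the octamer was in 1.77% and in 1.27% of those of kept genes. It was in 1.34% of the windows of genes higher under siOCT1 with DHT, 1.68% of those lower and 1.04% of those between. In the H2B list it was in 9 of 13 windows (69.2%) and among other clustered histone genes in 7 of 22 (31.8%). Most kept genes of both lists were lower, so histone windows are among the 43 windows of lower genes that held the octamer. The share without histone windows was not counted. A match is a run of letters and not evidence of binding, and histone windows are poorer in G and C than others (median 42% for H2B against 64.7% for kept genes).

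On the arrays, in the order siControl vehicle, siControl DHT, siOCT1 vehicle and siOCT1 DHT, H2BC14 read 12.87, 12.84, 8.91 and 9.83. Its signal was high on both siControl arrays and 8.04-fold lower with siOCT1 under DHT. H2BC11 read 9.41, 9.35, 7.13 and 6.95 and was 5.28-fold lower. H2BC8, with 10.71, 9.95, 8.10 and 8.84, was 2.16-fold lower, and H2BC18, at 16.42, 16.27, 14.96 and 14.93, 2.52-fold lower. Of 11 kept H2B genes, 10 were lower by 1.5-fold or more and 0 higher, with a median of -1.34 (7 lower of 8 above background on both arrays). H2BC21 differed by -0.41. H2BC26 and H2BC13, whose windows hold no exact octamer, were 4.93-fold and at least 1.63-fold lower. Clustered histone genes are near-identical copies, and probe sets may read more than 1 of them.

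The other clustered histones, which package DNA with H2B, were lower too: 20 of 26 kept genes were lower and 0 higher, with a median of -1.19. H1-5, a linker histone, read 14.84, 14.78, 11.27 and 11.85 and was 7.61-fold lower under DHT. H3C2 was 4.49-fold lower and H2AC14 3.83-fold lower. H2AC6 went the other way, at 0.49.

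Lower in siOCT1 cells under DHT were also the cell division genes. Of 40 listed mitosis genes 39 were kept, and 39 of 39 lay below siControl by 1.5-fold or more, 37 of them above background on both arrays, with a median of -2.26. CCNA2, the S and G2 cyclin, read 13.24, 13.44, 9.23 and 9.70, so both siOCT1 arrays were dim and both siControl arrays bright. CENPF, a kinetochore protein of G2 and mitosis, read 9.87, 11.75, 8.53 and 8.33 and was 10.7-fold lower under DHT. Its difference in vehicle was 1.34 lower, and its siControl level was higher with DHT than without. ECT2, the guanine exchange factor that starts cytokinesis, and NUF2, of the outer kinetochore, were likewise lower by 3.27 and 2.88 under DHT against 1.43 in vehicle for each. Smaller mitosis differences were those of PTTG1, the securin gene, 2.39-fold lower, and UBE2C, a ubiquitin-conjugating enzyme of the anaphase-promoting complex, 2.62-fold lower.

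The window of CENPF holds the letters TTTGAA of the cell cycle homology region (CHR), on which cell cycle repressor complexes act in many mitotic genes. As with the octamer, a match is not evidence of binding. Exact copies, on either strand, were in 67.5% of the windows of kept mitosis genes and 10.7% of those of all kept genes. In the window of CENPF, at chr1:214602945-214603244 on the plus strand, the copy in capitals starts 41 bases after the start.
CENPF: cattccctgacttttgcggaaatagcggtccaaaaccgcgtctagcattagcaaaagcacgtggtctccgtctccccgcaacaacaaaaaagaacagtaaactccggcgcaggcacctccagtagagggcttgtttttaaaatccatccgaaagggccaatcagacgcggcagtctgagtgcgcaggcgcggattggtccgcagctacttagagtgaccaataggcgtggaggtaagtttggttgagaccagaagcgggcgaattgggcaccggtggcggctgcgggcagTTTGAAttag

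DNA replication genes formed a second group of lower genes, with 32 of 32 kept members lower by 1.5-fold or more (24 of 24 above background on both arrays) and a median of -2.07. FEN1, the flap endonuclease, read 11.10, 11.08, 6.83 and 7.59 and was 11.2-fold lower. CDC6, which loads the helicase at origins, was 10.6-fold lower at 10.59, 10.67, 7.27 and 7.27. DTL, an adaptor of the CRL4 ubiquitin ligase that degrades CDT1, read 12.54, 12.58, 8.12 and 9.35. Here the siOCT1 level was lower in vehicle than under DHT, and the difference was 3.22 lower under DHT against 4.41 in vehicle. The window of DTL, at chr1:212035498-212035797 on the plus strand, holds an E2F type motif (GCGGGAA, here as its reverse complement TTCCCGC) at position -108, in capitals.
DTL: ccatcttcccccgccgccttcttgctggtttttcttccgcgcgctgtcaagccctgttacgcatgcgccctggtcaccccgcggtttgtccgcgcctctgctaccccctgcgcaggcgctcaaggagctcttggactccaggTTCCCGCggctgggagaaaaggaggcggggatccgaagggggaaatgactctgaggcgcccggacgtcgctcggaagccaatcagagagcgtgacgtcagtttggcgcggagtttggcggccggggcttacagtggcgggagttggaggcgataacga
E2F type matches were in 41.2% of replication gene windows, 51.7% of repair gene windows and 10.4% of those of kept genes. Over all lower genes the share was 13.5%, and over all higher genes 8.83%. CCAAT, a general promoter element, was in 41.1% and 33.9%.

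Among repair genes 15 of 20 kept members were lower by 1.5-fold or more, but only 6 of these 15 lay above background on both arrays, so several sizes are bounds. XRCC2, of homologous recombination, read 11.55, 12.15, 8.58 and 9.14 and was 8.04-fold lower. BRCA1, of the same pathway, was at least 3.58-fold lower with 8.75 on the siControl DHT array, and FANCI of the Fanconi pathway at least 4.36-fold lower. ATM, PALB2 and HMGB2 differed by less than 1.5-fold. With the list restricted to genes above background on both arrays the median was -1.21, against -1.88.

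Of 23 kept nucleotide supply genes 14 were lower and 4 higher, against 26.4% and 18.9% of all kept genes, so the higher share was near that of all. RRM2, the small subunit of ribonucleotide reductase, read 12.72, 13.24, 8.57 and 9.90 (10.2-fold lower), and TYMS, thymidylate synthase, 13.15, 12.81, 9.14 and 9.53 (9.72-fold lower). UMPS, the last enzyme of uridine monophosphate synthesis, was 3.90-fold lower and GMPS 3.48-fold lower. CMPK1, a pyrimidine nucleoside monophosphate kinase, was 2.57-fold higher, and IMPDH2, of guanine nucleotide synthesis, 1.77-fold higher.

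Among cell cycle regulators 17 of 24 kept genes were lower and 2 higher (13 and 2 of 19 above background on both arrays), with a median of -1.17. CDKN3, a phosphatase that acts on CDKs, was 13.4-fold lower at 11.62, 12.25, 8.75 and 8.5. GMNN, geminin, the CDT1 inhibitor, was 6.70-fold lower, CKS2 5.18-fold lower and FOXM1, a mitotic transcription factor, lower by 1.59 on the log2 scale. CDKN1B, the p27 CDK inhibitor, read 9.43, 8.78, 10.91 and 10.51 and was 3.33-fold higher. RBL2 (p130), a pocket protein of quiescent cells, was 1.80-fold higher. Of the p53 target list 12 of 19 kept genes were higher and 0 lower (9 of 16 on both arrays), with a median of 0.79. SESN1, a stress-inducible regulator of mTORC1, was 3.67-fold higher at 7.32, 7.27, 9.10 and 9.14, CCNG1 3.16-fold, TP53INP1 3.07-fold and CDKN1A (p21) 2.92-fold. TP53I3, a quinone oxidoreductase, read 6.16, 6.30, 9.70 and 9.30 and was at least 4.96-fold higher. MDM2 and GADD45A differed by less than 1.5-fold.

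The 15 lowest genes above background on both arrays included 4 members of the FAM72 family, short proteins encoded by near-identical copies on chromosome 1. FAM72A read 12.86, 13.21, 9.10 and 9.03, FAM72C 13.54, 13.78, 9.67 and 9.70, FAM72B 12.23, 12.63, 8.53 and 8.60 and FAM72D 12.67, 12.93, 8.95 and 8.96. All 4 were bright on the siControl arrays and 15.6- to 18.2-fold lower under DHT, and with such copies 1 RNA may be read by several probe sets. SLC35F2, a solute carrier, read 10.15, 11.14, 7.21 and 7.56 (lower by 3.58 on the log2 scale). CNN3, calponin 3, an actin-binding protein, read 10.92, 12.80, 7.91 and 9.28 (11.4-fold lower), and ASPH, aspartyl beta-hydroxylase, 15.53, 15.83, 12.39 and 12.14 (lower by 3.7 on the log2 scale).

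Among genes below background on the siOCT1 DHT array, the largest lower bounds were those of SEPTIN4, at least 39.2-fold lower with 12.20 on the siControl DHT array (the mean with its second, dim probe set gave -2.20), DHRS13, a dehydrogenase, at least 20.2-fold lower, and COL27A1, a fibrillar collagen, at least 10.2-fold lower. F3, tissue factor, the initiator of coagulation, read 3.86, 10.05, 2.60 and 5.11. It was above background on the siControl DHT array only, at least 8.81-fold lower with siOCT1, and below background on both vehicle arrays. ITGB5, an integrin subunit, was at least 7.46-fold lower and PRNP, the prion protein gene, at least 7.09-fold lower.

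Higher with siOCT1 under DHT were genes of several kinds. TMEFF2, a transmembrane protein with EGF and follistatin domains made by prostate, read 10.29, 10.78, 12.46 and 14.83. Its signal on the siOCT1 DHT array stood above the other 3, and the difference was 16.7-fold under DHT and 4.51-fold in vehicle. SLC2A12, a glucose transporter, read 7.25, 7.34, 9.14 and 11.13, with the siOCT1 DHT array again the highest (13.8-fold under DHT, 3.71-fold in vehicle). DDIT4L, an mTORC1 inhibitor related to DDIT4, read 9.71, 7.79, 12.25 and 11.75, and EDIL3, an extracellular matrix protein, 10.47, 7.79, 13.07 and 11.34. Both were lower with DHT on the siControl arrays, and were 15.5-fold and 11.7-fold higher with siOCT1 under DHT.

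IGFBP3, which binds insulin-like growth factors, read 13.06, 8.93, 15.07 and 12.46, 11.6-fold higher under DHT and 4.03-fold in vehicle. NCAM2, a neural adhesion molecule, read 9.07, 7.98, 11.21 and 11.34 (10.3-fold), and CD24, a glycosylated surface protein, 10.70, 10.34, 13.46 and 13.52 (9.05-fold). TNC, tenascin C, a matrix glycoprotein, read 8.64, 7.19, 9.92 and 10.36 (higher by 3.17 on the log2 scale), and PRAC1, a small nuclear protein of prostate and colon, 10.24, 9.04, 12.85 and 12.21 (8.96-fold). Below background on the siControl DHT array and above it with siOCT1 were CDH18, a cadherin, at least 6.49-fold higher, RBMS2, an RNA-binding protein, at least 6.48-fold, SEPTIN6 at least 6.01-fold and SP110, a nuclear body protein, at least 5.36-fold.

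**Figure D2:**
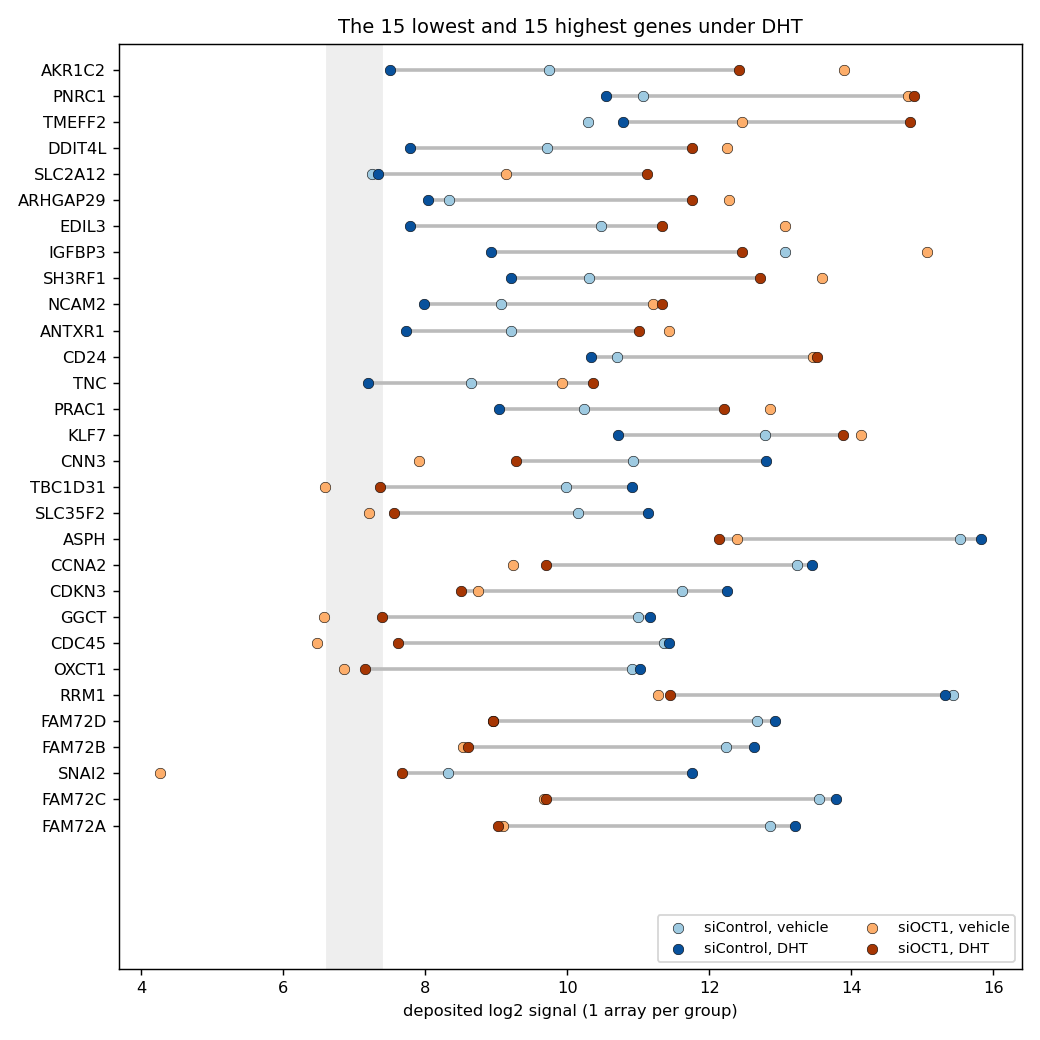
Deposited log2 signal on the 4 arrays (1 array per group) of the 15 genes with the lowest and the 15 with the highest siOCT1 minus siControl difference under DHT, among genes above background on both DHT arrays. Grey bars join the 2 DHT arrays and the shaded strip spans the 4 background levels; FAM72C sits at 13.78 and 9.70 and AKR1C2 at 7.50 and 12.42 on the DHT arrays.

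Secretory pathway genes were lower in siOCT1 cells with DHT. Of 32 kept genes of the endoplasmic reticulum (ER) folding machinery, 21 were lower and 1 higher, with a median of -1.15 under DHT and -0.70 in vehicle. HSPA5, the ER HSP70 chaperone BiP, read 15.16, 15.32, 12.96 and 12.86 and was 5.53-fold lower. MANF, an ER-resident neurotrophic factor induced with it, read 10.77, 10.67, 8.06 and 7.19 (11.2-fold lower), and PDIA4, a disulfide isomerase, 10.69, 10.74, 7.89 and 8.08 (6.31-fold lower). ERN1, which encodes the IRE1 sensor, read 7.27, 9.21, 6.73 and 6.83 and was at least 4.92-fold lower, its siControl value being higher with DHT. SPCS3, a signal peptidase subunit, went the other way and was 1.73-fold higher. The window of HSPA5, at chr9:125241294-125241593 on the minus strand, holds the ER stress response element (ERSE) in capitals at position -66, and it is shown because this element marks the induced ER genes. The ERSE, whose letters include a CCAAT, was in 20.5% of ER list windows and in 0.164% of those of kept genes.
HSPA5: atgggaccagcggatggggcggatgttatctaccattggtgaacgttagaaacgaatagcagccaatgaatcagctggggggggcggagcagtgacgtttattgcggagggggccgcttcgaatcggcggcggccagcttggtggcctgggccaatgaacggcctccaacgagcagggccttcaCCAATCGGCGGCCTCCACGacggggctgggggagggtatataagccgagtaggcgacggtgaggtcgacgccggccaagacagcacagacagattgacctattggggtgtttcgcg

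Genes of lipid synthesis were also lower. Of 20 kept cholesterol synthesis genes 15 were lower and 1 higher, with a median of -1.20. STARD4, which moves cholesterol between membranes, was 4.38-fold lower at 10.09, 10.68, 8.92 and 8.54, ACAT2 3.91-fold lower and HMGCS1, of the mevalonate pathway, 3.30-fold lower. SREBF2 itself, the transcription factor of this pathway, differed by -0.14. Of 11 kept fatty acid synthesis genes 8 were lower (7 of 10 on both arrays) and 0 higher. FASN, fatty acid synthase, read 13.40, 14.76, 12.37 and 12.75 and was 4.04-fold lower under DHT and 1.03 log2 units lower in vehicle. ELOVL5, an elongase, read 14.12, 16.17, 14.57 and 15.81, brighter with DHT for either siRNA, and differed by -0.35. Of the 5 kept LXR targets and lipid efflux genes 4 were higher and 1 lower, but only 2 lay above background on both arrays, and by bounds 3 were higher and 0 lower. SMPDL3A, a phosphodiesterase, read 10.96, 10.93, 11.35 and 12.63 and was 3.25-fold higher, the siOCT1 DHT array being the highest.

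Glycolysis genes were lower with siOCT1, by less under DHT than in vehicle. The median of 18 kept glycolysis genes was -0.71 under DHT and -1.30 in vehicle, with 11 lower and 0 higher under DHT. LDHA, lactate dehydrogenase, read 16.28, 15.79, 14.05 and 14.13 (3.16-fold lower), and PDK1, which inhibits pyruvate dehydrogenase, 9.35, 8.72, 5.62 and 5.61 (at least 3.51-fold lower). Of 15 kept hypoxia genes 8 were lower and 2 higher, against 26.4% and 18.9% of all kept genes. ERO1A, an ER oxidase, was 5.66-fold lower and BNIP3, a mitophagy receptor, 4.72-fold lower. MXI1, a MYC antagonist, was 1.90-fold higher.

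Ribosomal protein genes of the cytosol and of mitochondria stood on opposite sides of siControl by their medians. Of 44 kept cytosolic ribosomal protein genes, all above background on both arrays, 30 were higher and 0 lower, with a median of 0.75 under DHT and 0.49 in vehicle, and the signal of all 44 was higher with siOCT1. RPS19 read 14.58, 14, 16.46 and 16.30 (4.91-fold higher), and RPL27 12.10, 10.51, 12.73 and 12.19 (3.19-fold). Of 66 kept mitochondrial ribosomal protein genes 27 were lower and 4 higher (median -0.47). MRPL24 was 3.96-fold and MRPL17 3.81-fold lower. Of 16 tRNA synthetase genes 0 were higher and 3 lower (median -0.35). Against 18.9% higher and 26.4% lower over all kept genes, translation factors were mixed, 9 of 38 higher and 8 lower. Within them EEF1D was 3.72-fold higher and the eIF3 subunits EIF3F, EIF3L and EIF3E 3.47-, 2.53- and 2.10-fold higher, while EIF3A and EIF3B were 2.56- and 1.63-fold lower and EIF2S3 3.60-fold lower. Subunits of 1 complex thus stood on opposite sides of siControl.

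Counts in other large groups varied against the 26.4% of all kept genes that were lower. Of 38 proteasome genes 17 were lower and 1 higher, of 36 nuclear pore and transport genes 22 lower and 0 higher, of 28 cytosolic chaperones 14 lower and 0 higher, and of 63 respiratory chain genes 17 lower and 1 higher, the last a share near that of all kept genes. PSMD10, a proteasome assembly chaperone, read 11.21, 11.26, 7.51 and 8.43 (7.11-fold lower), and SEH1L, a nuclear pore subunit, 12.04, 11.87, 9.01 and 9.56 (4.97-fold lower). CYCS, cytochrome c, was 4.78-fold lower, and FKBP4, an HSP90 partner of steroid receptors, 2.49-fold lower. HSP90AB1 differed by 0.07. Of 13 reference genes often used for scaling, 6 were lower by 1.5-fold or more and 0 higher, with a median of -0.50. ACTB differed by 0.58 and TBP by 0.39.

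**Figure D3:**
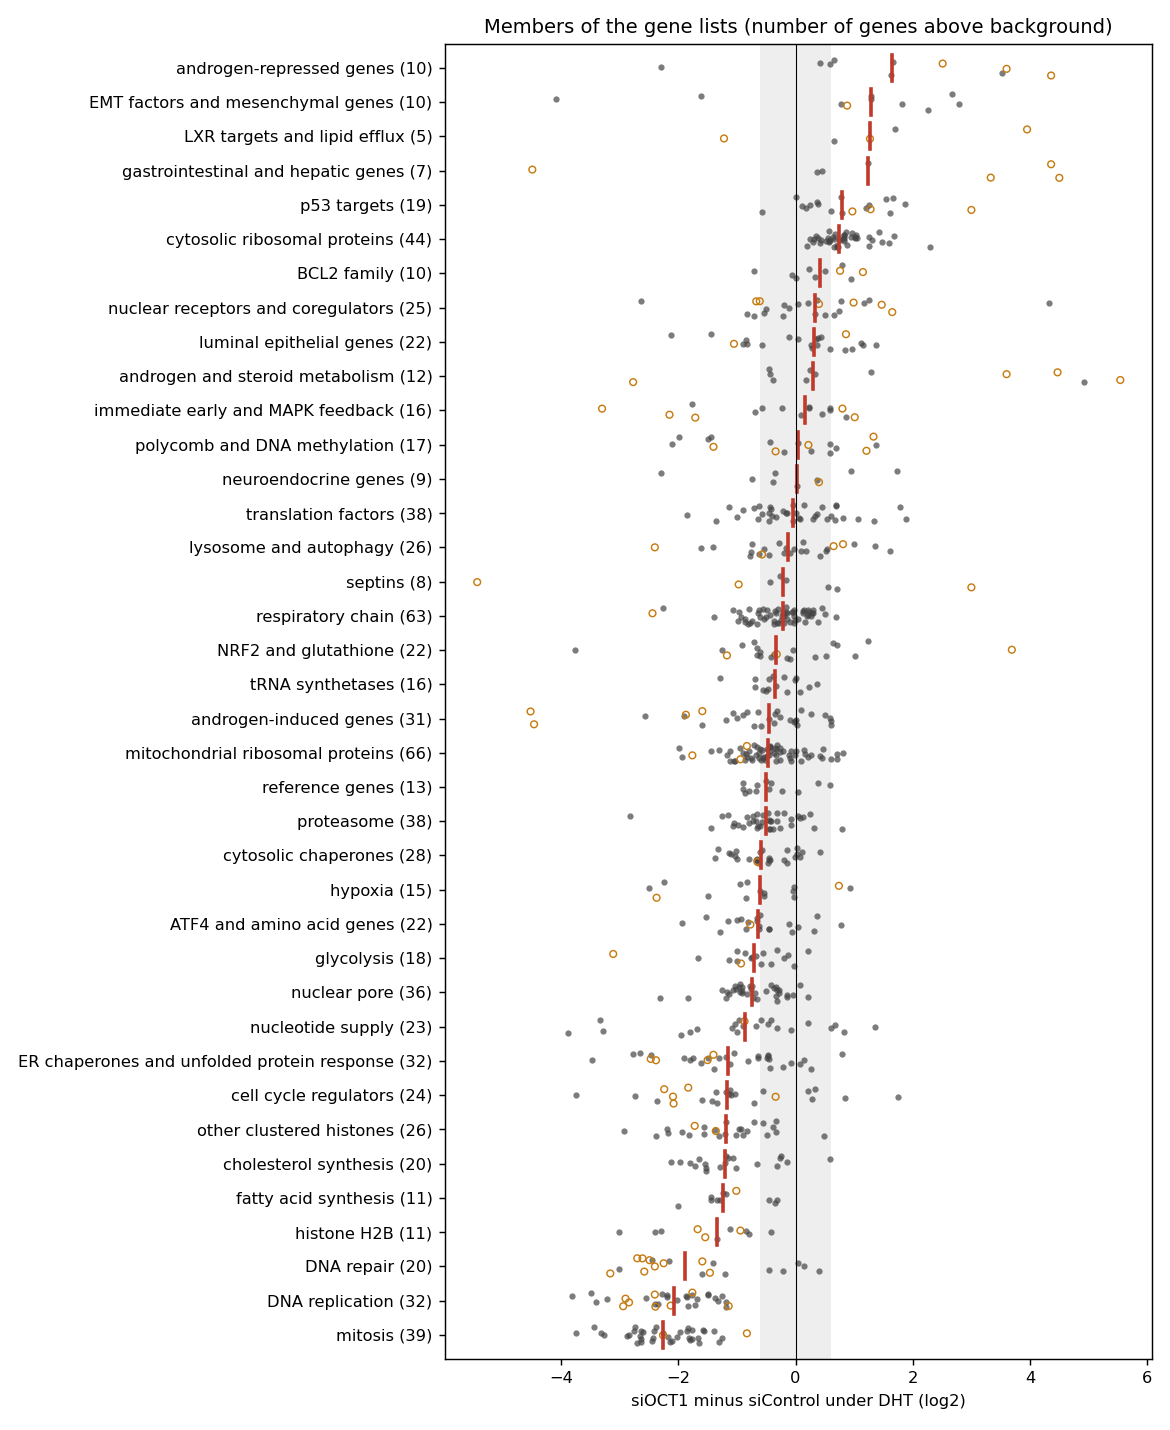
siOCT1 minus siControl under DHT (log2) for members of the gene lists with 5 or more kept genes, sorted by the list's median (red bar). Filled points are genes above background on both DHT arrays, open points those above it on 1 array, whose exact size is not measured, and the grey strip is less than 1.5-fold; mitosis has the lowest median, -2.26, and cytosolic ribosomal proteins lie at 0.75.

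Androgen target genes varied. Of 31 kept androgen-induced genes 15 were lower and 2 higher (11 and 2 of 27 above background on both arrays). The median was -0.46 under DHT and 0.43 in vehicle, and -0.35 under DHT for the 27. All 31 were kept for their signal under DHT. Some, such as SGK1, STEAP4, SLC45A3 and INPP4B, were below background on both vehicle arrays (6.62 and 7.39). The vehicle median thus rests partly on differences whose size is not measured. SGK1, a kinase, read 3.45, 8.90, 4.08 and 4.44 and was above background on the siControl DHT array only, at least 3.99-fold lower with siOCT1. STEAP4, a metalloreductase, read 3.75, 8, 3.17 and 3.48 and was at least 2.13-fold lower. AMACR, a peroxisomal racemase used as a prostate cancer marker, read 7.90, 10.29, 7.83 and 7.72, so only the siControl DHT array stood out. In contrast SLC45A3, a prostate transporter, read 5.34, 11.63, 5.81 and 12.21, INPP4B, a phosphoinositide phosphatase, 4.78, 9.47, 6.19 and 9.56, and RAB3B, a vesicle GTPase, 6.95, 11.37, 7.48 and 11.64. These 3 were high on both DHT arrays, with differences of 0.58, 0.09 and 0.27. The luminal keratins KRT8 and KRT18 were 2.71-fold and 1.79-fold lower with siOCT1 under DHT, and the epithelial splicing regulator ESRP1 was 2.60-fold higher. Of 22 kept luminal genes 6 were lower and 7 higher, against 26.4% and 18.9% of all kept genes, so the lower share was near that of all.

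Among the 10 kept androgen-repressed genes 8 were higher and 1 lower (5 and 1 of 7 above background on both arrays), with a median of 1.64 under DHT and 0.94 in vehicle. The median of the 7 above background on both arrays was 0.66. FOLH1, the prostate-specific membrane antigen, read 14.69, 12.63, 15.68 and 14.26 (3.09-fold higher under DHT), and ST3GAL1, a sialyltransferase, 11.47, 8.43, 12.36 and 10.09 (3.16-fold). Both were lower with DHT on either siRNA and higher with siOCT1 on either ligand. PEG10, a retrotransposon-derived gene, read 10.06, 10.45, 9.27 and 8.16 and was 4.91-fold lower.

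Of the 10 kept genes in the list of EMT factors and mesenchymal genes 8 were higher and 2 lower (7 and 2 of 9 above background on both arrays). ID1, ID2 and ID3 encode inhibitors of basic helix-loop-helix factors and are BMP targets. ID2 read 14.39, 11.03, 15.21 and 13.70, ID3 13.48, 10.92, 14.31 and 13.17, and ID1 13.89, 11.86, 14.03 and 13.15. Under DHT they were 6.36-, 4.78- and 2.44-fold higher with siOCT1. SMAD7, the inhibitory SMAD, read 11.04, 7.95, 10.53 and 9.76, and CDH6, a cadherin, 11.07, 9.04, 10.93 and 11.83. SMAD7 was 3.51-fold and CDH6 6.89-fold higher under DHT, while in vehicle they differed by -0.50 and -0.14. SNAI2, a repressor of epithelial genes, read 8.32, 11.75, 4.27 and 7.67, 16.9-fold lower under DHT, and ITGAV, an integrin subunit, was 3.05-fold lower.

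Among hormone receptor genes and coregulators NR4A1, an orphan receptor, was 6.21-fold lower, and PNRC1 was higher by 4.32 on the log2 scale at 11.07, 10.55, 14.79 and 14.88. Of 25 kept genes in that list 9 were higher and 5 lower, against 18.9% and 26.4% of all kept genes. Steroid-metabolising AKR1C2 read 9.75, 7.50, 13.90 and 12.42 (30.3-fold higher under DHT). Its relatives AKR1C1 and AKR1C3, which probe sets may not fully separate, were at least 5.03-fold and at least 4.14-fold higher. RDH11, a retinol dehydrogenase, was 2.45-fold higher. UGT2B15 and UGT2B11, of the same enzyme family, were at least 2.69-fold higher and at least 2.80-fold lower.

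Immediate early and MAPK feedback genes were mixed, 4 of 16 higher and 5 lower, or 3 and 3 by bounds. This count and those of the lists below stand beside 18.9% higher and 26.4% lower over all kept genes. ETV5 was at least 1.37-fold lower with both siControl arrays above background, and EGR1, an immediate early factor, 3.38-fold lower at 9.22, 8.83, 7.73 and 7.08. Chromatin genes also divided: HELLS, a remodeller of DNA methylation, was 4.29-fold lower and RBBP4, a histone chaperone, 3.95-fold lower, whereas TET3, a methylcytosine dioxygenase, was 2.59-fold higher and JARID2, a polycomb cofactor, at least 2.06-fold higher. In the lysosome and autophagy list CTSL was 2.63-fold lower and ATG14, which starts autophagosomes, 3.07-fold higher. Of 10 kept BCL2 family genes 4 were higher and 1 lower, with BCL2L11 (BIM) 1.94-fold higher and BCL2L2 1.63-fold lower. Of 22 kept NRF2 and glutathione genes 5 were higher and 9 lower: FTL, ferritin light chain, was 2.34-fold higher and GCLM, of glutathione synthesis, 2.37-fold lower. Of 22 amino acid stress genes under ATF4, 14 were lower and 1 higher, with ALDH1L2 3.82-fold lower.

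The 2 arrays with vehicle shared no array with the DHT pair. Across the 7945 genes the differences in DHT and in vehicle correlated with Pearson r of 0.765 and Spearman rho of 0.737, over genes, which are not independent replicates. In vehicle, 22.3% of these genes were higher and 28.6% lower. Of the genes higher under DHT, 63.9% were also higher in vehicle, and of those lower under DHT, 72% were also lower in vehicle; the reverse shares were 54.2% and 66.5%. Only 66 of the 7945 were past 1.5-fold in opposite directions. The difference was larger in size in vehicle for 4514 genes and under DHT for 3431.

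**Figure D4:**
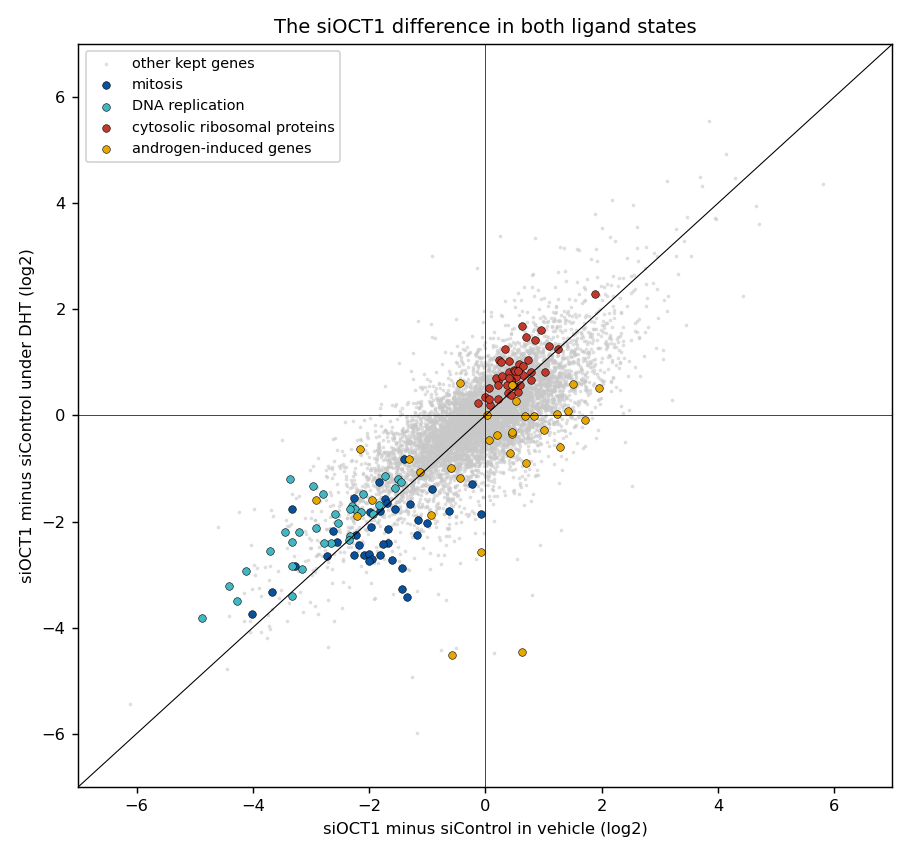
siOCT1 minus siControl in vehicle (horizontal) against the same under DHT (vertical), log2, for 7945 genes, with the diagonal as a line. Mitosis, replication, ribosomal protein and androgen-induced genes are coloured; Pearson r over all points is 0.765, and points of genes below background on an array, such as STEAP4 and SGK1 at the lower edge of the androgen-induced genes, have no exact size.

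Among genes above background on all 4 arrays, the siOCT1 difference changed most between ligand states in 12 genes. ABCA5, an ABC transporter, read 7.54, 8.80, 9.93 and 8.30, higher with siOCT1 in vehicle by 2.39 and lower by 0.49 under DHT. BAZ2B, a bromodomain protein whose second probe set was dim, read 6.71, 8.51, 9.18 and 8.60, the first near the background of 6.62. RANBP2, a nuclear pore protein, read 8.59, 10.86, 10.50 and 10.44. Both were lowest on the siControl vehicle array. BAZ2B and RANBP2 were higher with siOCT1 in vehicle by 2.47 and 1.91, and under DHT differed by 0.10 and -0.42. On the other side NPR3, a natriuretic peptide receptor, read 11.08, 9.28, 8.11 and 8.33, and NOP16, a ribosome assembly factor, 12.11, 11.69, 9.24 and 10.88. RCN1, a calcium-binding ER protein, read 11.23, 10.19, 9.14 and 10.10. NOP16 and RCN1 were lowest on the siOCT1 vehicle array. NPR3 was low on both siOCT1 arrays, and its siControl value was lower with DHT than without. The differences of NPR3, NOP16 and RCN1 under DHT, -0.95, -0.81 and -0.08, were smaller in size than in vehicle. Whether these changes exceed the variation between cultures was not tested.

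**Figure D5:**
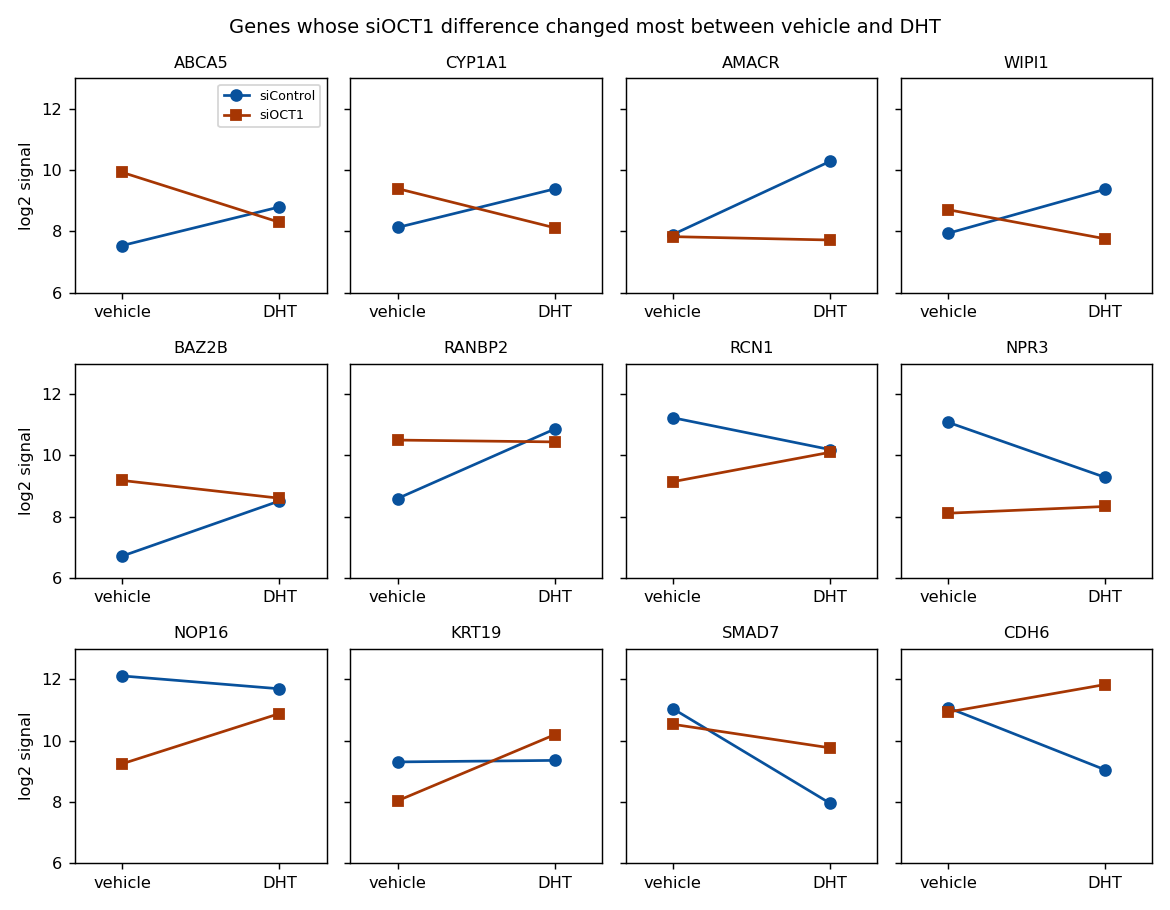
Deposited log2 signal in vehicle and DHT for siControl (circles, blue) and siOCT1 (squares, brown), 1 array per point, for the 12 genes above background on all 4 arrays whose siOCT1 difference changed most with DHT. AMACR is at 10.29 on the siControl DHT array and between 7.72 and 7.90 on the others, and CDH6 is at 9.04 on that array against 10.93 to 11.83 on the others.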

How the data were processed

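The deposited series matrix held 1 log2 signal per probe set and array, which, per the submitters' processing notes, the authors computed by RMA with Affymetrix Expression Console. Versions and the genome build are not given in the sources used here. The method forces arrays to a common distribution, so a change in total RNA cannot be seen. The platform table gave 1 gene symbol to 17709 of 24351 probe sets and several to 0, and 3739 transcript probe sets had none here. For 20 genes with several probe sets the brightest was used. On each array 60 to 66 genes exceeded 16, the log2 limit of a 16-bit scanner, so folds hold on the deposited scale only.

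Differences were subtracted between single arrays with no test and counted at 1.5-fold. Other filters on dim genes, floors at background, a 2-fold rule, 32 added before the logarithm, the mean of probe sets and centring on positive controls, on the median of kept genes or by loess were tried as alternatives. Where the dimmer array lay below background, "at least N-fold" is the brighter value over that array's background. Named genes were the 15 highest and lowest differences, the 8 highest and lowest bounds, the 6 highest and lowest changes with ligand, and up to 4 members of each of 41 lists, plus 1 against the list's direction; the text gives some of these and further list members chosen after their values were seen. The members and lists were chosen with earlier results of these data known. Promoters came from RefSeq, also searched for SRE and ARE letters, which are not described. Python 3.11.15, numpy 2.4.6, pandas 2.3.3, statsmodels 0.14.6 and matplotlib 3.10.9 were used, and the differencing was tested on simulated data. POU2F1 was not analysed here.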

Additional observations from a re-analysis of the deposited data

Results flagged for a closer look

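In 32 of 6458 genes above background on all 4 arrays the siOCT1 difference had opposite signs in the 2 ligand states, each past 1.5-fold. By the same rule 768 of the 6458 were higher and 1048 lower in both states. Of the 32, 3 were among the 12 genes whose difference changed most between states and are given here. With 1 array per group the difference between states was not tested. CYP1A1, a xenobiotic-metabolising enzyme, differed by -1.27 under DHT and 1.27 in vehicle, on arrays reading 8.13, 9.39, 9.40 and 8.12 in the order siControl vehicle, siControl DHT, siOCT1 vehicle and siOCT1 DHT. KRT19, a luminal keratin, differed by 0.85 under DHT and -1.27 in vehicle. WIPI1, an autophagy protein, differed by -1.62 under DHT and 0.78 in vehicle.

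Some transcript probe sets have no gene name here, and the comparisons leave them out. Of these, 513 of the 1130 above background on at least 1 DHT array differed by 1.5-fold or more (45.4%), 272 higher and 241 lower with siOCT1. The share was near the 45.3% of all kept genes.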

How the results depend on the processing

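No paired analysis was possible because each group held 1 array. For the same reason, leaving out a replicate could not be done. Alternatives to the filter and to the scale moved these values, and the cause was not tested beyond their construction. The number of genes higher with siOCT1 under DHT, 1499, was 2891 with no filter on background, 846 with background at the 99th percentile and 682 at 2-fold, where 1138 were lower. With no filter the list medians (main value in brackets) were -0.60 (-1.23) for fatty acid synthesis, 0.29 (1.27) for LXR targets and 0.26 (1.23) for gastrointestinal genes. They were 0.29 (1.29) for EMT genes, -0.06 (-1.56) for POU factors and 0.15 (1.46) for markers of other cell types. For interferon-stimulated genes the value was -0.07 (1.09), with its sign turned. The main values of the POU and other cell type lists are those of 1 kept gene each, and that of the interferon list of 2. For genes above background on both arrays the list medians were -1.21 (-1.88) for DNA repair, 0.45 (1.23) for gastrointestinal and 0.66 (1.64) for androgen-repressed genes. At the 99th percentile 1 gastrointestinal gene was left, PGC, below background on the siOCT1 DHT array, and the value of -4.49 is that gene's. With values raised to each array's background they were 0.65 for LXR targets, 0.86 for androgen-repressed genes, -0.28 for POU factors and 0.38 for other cell types. With values raised to the higher background they were -1.23 for DNA repair, 0.65, 0.86, -0.19 and 0.38. The genes past the size rule in opposite directions numbered 32 of 6458 when all 4 arrays had to be above background. At 2-fold, 387 were higher and 791 lower in both ligand states and 6 opposite. Of 207 named genes 25 moved by 1.5-fold or more under some alternative, and 0 of those past 1.5-fold changed sign. RCN1, at -0.08, was at 0.04 when centred on positive controls. The translation factor median, -0.05, was 0.07, 0.03 and 0.11 under the 3 centrings. Dim probe sets, where 56.9% of negative controls passed 1.5-fold, limit what can be read.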
